A study of Mus musculus with 21 samples.

Results

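Glutathione and antioxidant defence genes were followed in left ventricular tissue of mice under pressure overload and semaglutide (Sema). The set holds 45 of the 22136 genes counted, picked by name: 6 genes of glutathione synthesis, recycling and breakdown, 17 glutathione and related transferases, 6 glutathione peroxidases and catalase, 11 genes of the thioredoxin and peroxiredoxin system, and 5 superoxide dismutases and quinone and heme detoxification genes. All 45 symbols were found in the table, and 44 passed the filter on low counts. The gene left out was Mgst2, which lay between 0 and 0.632 CPM (counts scaled to a common library total) in every library.

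Transverse aortic constriction (TAC) narrows the aorta and loads the left ventricle with pressure. Sema is an agonist of the glucagon-like peptide 1 receptor. All animals were wild-type male C57BL/6J mice, bought at 8 weeks of age, and the unit of 60.0 per kg and day for the injected dose is mg in the labels and µg in the study's methods. The 21 libraries fall into 6 groups: Sham (sham surgery and vehicle, n = 6), TAC 8W (TAC and vehicle, n = 3), TAC 8W + Sema 8W (n = 3), TAC 8W + Sema 4W (n = 3), Sham + Sema 8W (n = 3; these titles name no duration, and 8 weeks were read because the other such group is labelled 4W) and Sham + Sema 4W (n = 3). The count table names the Sema groups by tags and not by weeks: Sema with no tag, Sham_sema_M, TAC8W_sema_M and TAC8W_Sema_high. The untagged columns were taken as the titles with no duration, which leaves M for the 4W titles without TAC, and M under TAC was read as 4W by the shared tag. The tag high was read as the high dose that the study's methods describe for 8 weeks, although the labels give 1 dose for both durations. No source used here explains M, so every 4W and 8W label of a Sema group below rests on this reading.

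Total counts were 8897837 to 17170139 per library. By the running numbers in their titles the libraries fall into 2 sets, which differed in the share of mitochondrially encoded counts. It was 20.2% to 40.8% in the 12 libraries of Sham replicates 1 to 3, Sham + Sema 8W, TAC 8W and TAC 8W + Sema 8W (the first set), and 43.8% to 54.9% in the 9 libraries of Sham replicates 4 to 6 and both 4W groups (the second set). No label explains these sets, and TAC 8W + Sema 4W and TAC 8W lie on different sides of it, so set and treatment cannot be told apart there. The labels call the cells cardiomyocytes, while fibroblast, macrophage and endothelial markers were counted in every group (summed levels of 616 to 3236, 62.3 to 496 and 304 to 728 CPM), beside 35837 to 124857 CPM for 8 cardiomyocyte markers. In such tissue, fewer cells of a type and less RNA per cell cannot be told apart.

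Glutathione is made from glutamate, cysteine and glycine, with glutamate-cysteine ligase (Gclc and its modifier Gclm) as the rate-limiting step and glutathione synthetase (Gss) after it. Glutathione peroxidases spend it on hydrogen peroxide and lipid peroxides, transferases couple it to reactive electrophiles, and glutathione reductase (Gsr) restores it with NADPH. In parallel, thioredoxins and their reductases keep peroxiredoxins reduced, sulfiredoxin (Srxn1) repairs peroxiredoxins that were overoxidised, and superoxide dismutases turn superoxide into hydrogen peroxide. In a beating heart with many mitochondria these systems face a steady flow of oxidants, and the transcription factor NRF2 (gene Nfe2l2) with small MAF partners induces many of the genes through the antioxidant response element.

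The core of that element was searched as TGACNNNGC on both strands in RefSeq promoter windows (GRCm38.p6, 250 bases before to 50 after a start site). It was chosen because Srxn1 and Txnrd1 carry it. These genes were called together in TAC 8W + Sema 4W vs Sham + Sema 4W and in Sham + Sema 4W vs Sham, and in no other comparison. Both comparisons use the same Sham + Sema 4W libraries, so they are not separate observations. Against Sham replicates 4 to 6 alone, neither gene was called in Sham + Sema 4W (adjusted p = 0.345 each in edgeR). As the search was chosen from these data, their 2 matches test nothing, and the share given next includes them. Windows were at hand for 36 of the 45 genes, and 9 of them (25.0%) held a match, beside 14.0% of all 27025 genes with a window. Each match is printed 5′ to 3′ on the strand of its gene with 10 bases on either side. Capitals mark the match, and the number after the gene gives its offset from the start site in bases.
Srxn1 (chr2:152105542-152105570, 28): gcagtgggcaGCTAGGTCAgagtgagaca
Txnrd1 (chr10:82859104-82859132, -92): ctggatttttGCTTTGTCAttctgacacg
Gclm (chr3:122245413-122245441, -134): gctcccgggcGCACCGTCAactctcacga
Prdx1 (chr4:116685456-116685484, -133): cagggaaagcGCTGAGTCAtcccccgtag
Mgst1 (chr6:138140461-138140489, -56): gcggggcttgGCACGGTCAggaggcgggg
Sod1 (chr16:90220696-90220724, -56): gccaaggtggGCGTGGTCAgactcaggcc
Gsta3 (chr1:21240454-21240482, -121): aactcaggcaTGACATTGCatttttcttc
Gstm5 (chr3:107895802-107895830, -42): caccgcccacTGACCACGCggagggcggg
Gstm7 (chr3:107931725-107931753, -129): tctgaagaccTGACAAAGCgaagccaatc
A match of letters is a description of the sequence and not a bound site. A gene with a window but no match lacks only these letters in that window. Gclc, Gsr, Ggt5, Oplah, Gsta4, Gstt2, Prdx6, Sod3 and Hmox1 had no window and were not searched.

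Levels of different genes were compared as CPM per kb of exon. In Sham the highest was Gpx4, the peroxidase that reduces lipid peroxides in membranes, at 419 ± 108 CPM per kb (SD, n = 6). Mgst3, a microsomal transferase, followed at 288 ± 58.8, the mitochondrial and cytosolic peroxiredoxin Prdx5 at 224 ± 53.1 and the mitochondrial Prdx3 at 166 ± 29.6. Gstm1 (151 ± 23.0), Prdx2 (133 ± 15.8) and Prdx1 (132 ± 18.3) came next and did not differ beyond their spread. Glutathione synthesis genes stood far lower, with Gclc at 1.75 ± 0.411, Gclm at 2.16 ± 0.244 and Gss at 2.32 ± 0.328 CPM per kb. Srxn1, at 0.895 ± 0.396, was the lowest tested gene after Gstt3 (0.386 ± 0.198).

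**Figure D1:**
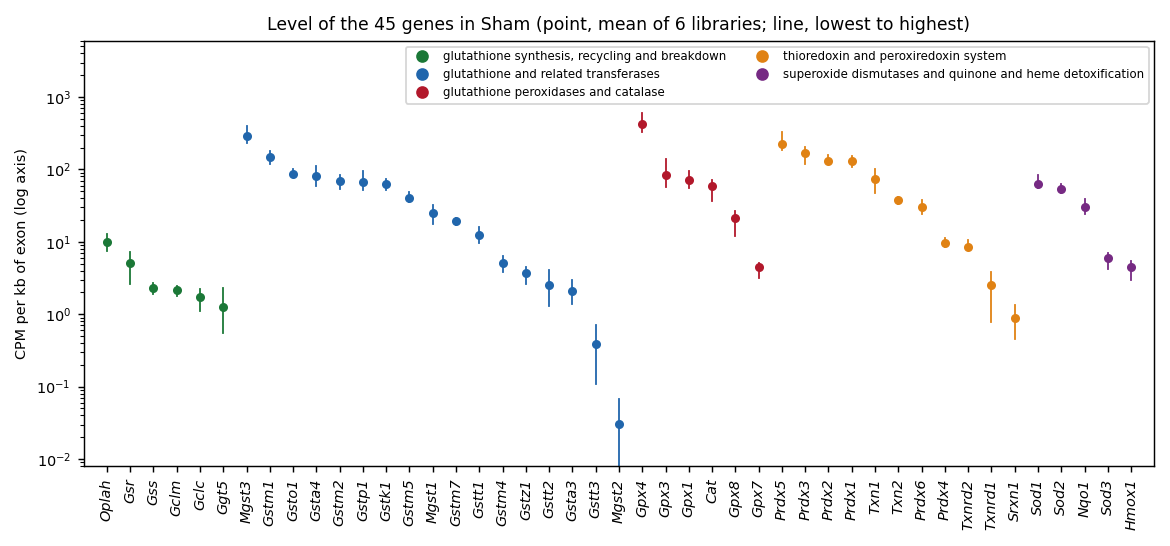
Level of the 45 genes in Sham in CPM per kb of exon on a log axis, by class (colour); points are means of 6 libraries and lines run from the lowest to the highest library (the line of Mgst2 goes down to 0 and leaves the axis). Gpx4 at 419 and Mgst3 at 288 CPM per kb stand at the top, and Srxn1 (0.895), Gstt3 (0.386) and Mgst2 (0.0305) at the bottom.

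Some of these levels rest on sequence shared with other loci. Of the 50-base words in its transcripts, Gpx4 shared 34.7% with other genes (most with Gpx4-ps2), Gstp1 33.7% (Gstp2), Sod2 21% and Gstm1 18.9%, so how reads were assigned there could shift their values. Overlap of exons with another counted gene was 19.1% for Prdx5 (Trmt112) and 11.7% for Oplah (Exosc4 and Smpd5). Srxn1, Txnrd1, Gpx3 and Gstt1 shared no such words and overlapped no counted gene.

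The 45 genes together made up 3864 to 10632 CPM. Both ends belong to libraries that differ from their group. TAC 8W replicate 1 had the lowest sum (3864 CPM, against 6781 and 5062 in the other TAC 8W libraries), TAC 8W + Sema 4W replicate 3 had 4096 (against 7086 and 7043), and Sham + Sema 8W replicate 3 had the highest (10632, against 6278 and 5424). In the same libraries the rank correlation of log expression, relative to the mean of all libraries, with gene length was 0.400, 0.435 and -0.364, the most extreme values of the 21 in each direction. Abundant members moved with it: Mgst3 was at 114, 196 and 807 CPM and Prdx5 at 240, 303 and 1050 CPM in these 3 libraries, beside 252 to 438 and 395 to 701 CPM in Sham.

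TAC 8W vs Sham asks what pressure overload did to these genes. Srxn1 and Gpx3 rose, and 3 transferases (Gstt2, Gstt1 and Gstm7) and Oplah fell. These are 6 of 44 genes tested (13.6%), where 4.34% of all 12626 genes were called. The median log2 fold change was -0.13 over the 44 genes (18 of them positive) and 0.05 over all genes.

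Srxn1 had 3.83, 3.26 and 3.45 CPM in Sham replicates 1 to 3, 1.44, 1.30 and 1.85 CPM in replicates 4 to 6, and 8.46, 7.35 and 5.66 CPM in TAC 8W. Every TAC 8W library lay above all 6 shams, and the shams themselves split by set. The log2 fold change was 1.5 ± 0.33 (SE; 2.83-fold), with an adjusted p of 0.00922 in edgeR's quasi-likelihood test. Against Sham replicates 1 to 3 alone, its own set, it was 1.03 (adjusted p = 0.1), and against replicates 4 to 6 it was 2.22 (adjusted p = 0.000451).

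Gpx3, the peroxidase secreted into plasma, had 579, 335 and 219 CPM in TAC 8W. In Sham it had 104 CPM in the lowest library, a median of 149 and 256 in the highest. Replicate 3 of TAC 8W thus lay below the highest sham, replicate 5. The log2 fold change was 1.30 ± 0.32 (adjusted p = 0.0185), and it was 1.48 (adjusted p = 0.0453) against Sham replicates 1 to 3. It was the only one of the 6 genes past the threshold in that within-set comparison, and against replicates 4 to 6 it was 1.14 (adjusted p = 0.0569).

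Gstt1, Gstt2 and Gstt3 encode theta class transferases and lie side by side on chromosome 10 (GRCm38, Gstt1 from 75783813 to 75798584, Gstt2 from 75831114 to 75837424, both on the minus strand). Gstt2 had 2.89, 2.92 and 3.21 CPM in TAC 8W, with no overlap with the shams, where the lowest was 5.34, the median 10.2 and the highest 17.0 CPM. It fell by 1.80 ± 0.38 on the log2 scale (adjusted p = 0.00711). Gstt1 had 6.65, 11.8 and 8.11 CPM in TAC 8W, against 14.5, 15.5 and 14.9 in Sham replicates 1 to 3 and 24.1, 24.2 and 20.3 in replicates 4 to 6. It fell by 1.10 ± 0.30 (adjusted p = 0.0373), and the drop was 0.76 (adjusted p = 0.283) against Sham replicates 1 to 3. Gstt3, at 0.731 to 1.30 CPM in TAC 8W and 0.411 to 2.70 in Sham, had a log2 fold change of -0.57 and was not called.

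Oplah encodes 5-oxoprolinase, which returns glutamate to glutathione synthesis. Its levels were 28.3, 33.7 and 37.2 CPM in TAC 8W, all below the lowest sham (43.6 CPM, with a median of 55.0 and a highest of 75.9). The fall was 0.81 ± 0.22 on the log2 scale (adjusted p = 0.0406). Gstm7, a mu class transferase, had 9.58, 22.0 and 20.1 CPM in TAC 8W and 27.0 to 34.7 CPM in Sham, again without overlap. It fell by 0.85 ± 0.24 (adjusted p = 0.0418), and replicate 1 was the lowest of all 21 libraries.

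By class, most values were not called, and the classes were not tested against each other. Of 16 transferases tested, 1 had a positive log2 fold change in TAC 8W (Gsto1, 0.31) and 15 a negative one, with a median of -0.51. Among the latter, Gstk1, the mitochondrial and peroxisomal kappa class transferase, had 19.8, 63.5 and 53.8 CPM against 76.5 to 107 in Sham (-1.04, adjusted p = 0.0509), just outside the threshold. All 6 peroxidases and catalase had a positive value (median 0.42), with Gpx3 alone past the threshold. Of the 11 thioredoxin and peroxiredoxin genes, 4 were positive (median -0.12), and the 6 peroxiredoxins lay between -0.22 and 0.04. The 3 dismutases ran from -0.39 (Sod2, mitochondrial) to 0.51 (Sod3, extracellular).

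The much used NRF2 target genes were not called. Gclc had a log2 fold change of 0.39 ± 0.28 (adjusted p = 0.499) and Gclm of 0.06 ± 0.20 (adjusted p = 0.917). Nqo1, a quinone reductase, had 49.3, 84.7 and 58.8 CPM in TAC 8W against 37.1 to 60.8 in Sham (0.44 ± 0.22, adjusted p = 0.305). Hmox1, which breaks down heme, had 27.1, 4.78 and 8.34 CPM against 5.23 to 9.63 in Sham (0.80 ± 0.49, adjusted p = 0.403). Replicate 1 alone was high, and without it the Hmox1 value turned to -0.27.

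All 6 calls were lost without TAC 8W replicate 1, where 0 of the 44 genes passed edgeR (9 at an unadjusted p under 0.05). Of all genes 152 passed in place of 548, in a fit with 1 library fewer. The log2 fold changes without that replicate were 1.33 for Srxn1, 0.82 for Gpx3, -1.80 for Gstt2, -0.96 for Gstt1, -0.74 for Oplah and -0.59 for Gstm7. Leaving out TAC 8W replicate 3, Sham replicate 5 or Sham replicate 6 left 3 calls each time, Srxn1, Gpx3 and Gstt2. These are 6.82% of the members, beside 3.35%, 3.09% and 3.29% of all genes in those fits. Against Sham replicates 1 to 3 alone, Gpx3 was the 1 member called (2.27% of the 44), a share near the 2.22% of all genes called in that fit. With the trends in GC content and length taken out of every library, 8 members were called (3 higher, 5 lower). These are 18.2% of the members, beside 5.33% of all genes. Beside these genes, the 8 cardiomyocyte markers summed to 35837 to 73771 CPM in TAC 8W and 62334 to 88398 CPM in Sham. Of 8 fibroblast markers, 3 were called higher (Col1a1, Col1a2 and Postn). Only 5 of the 8 had a positive log2 fold change, and the lowest value was -0.61. The part of these markers in the result was not tested.

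A second look at pressure overload uses none of those libraries. TAC 8W + Sema 4W vs Sham + Sema 4W lies within the second set, and it called 6 of 44 genes (background 2.51%), with Srxn1 and Txnrd1 higher and Gstt1, Gsta3, Gstt2 and Oplah lower. Srxn1, Gstt1, Gstt2 and Oplah were thus called in the same direction in both comparisons. These share no library but draw on 1 model of all libraries, and the share of all genes called in both was not counted. With only the 4W groups fitted, none of these 4 genes was called in edgeR (adjusted p = 0.141 to 0.241). In TAC 8W against Sham replicates 1 to 3 alone none of them was called either (adjusted p = 0.0550 to 0.283). The median was -0.19 (15 of 44 positive), and 0.08 over all genes.

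Here Srxn1 had 0.895, 1.05 and 0.556 CPM in Sham + Sema 4W (10, 10 and 3 counts) and 7.29, 3.81 and 4.94 CPM (67, 37 and 76 counts) in TAC 8W + Sema 4W. The groups were far apart, with a log2 fold change of 2.62 ± 0.46 (6.15-fold, adjusted p = 0.00486). Txnrd1, the cytosolic thioredoxin reductase, had 4.75, 7.27 and 3.71 CPM against 13.3, 16.1 and 27.5 (1.84 ± 0.47, adjusted p = 0.0425). Its highest value was replicate 3, the library with the extreme length correlation, and without that library the value was 1.48 (adjusted p = 0.137). For Srxn1 the same step gave 2.68 (adjusted p = 0.00343).

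Gstt1 had 26.5, 29.5 and 19.3 CPM in Sham + Sema 4W and 9.79, 8.14 and 7.41 in TAC 8W + Sema 4W, a fall of 1.58 ± 0.34 (adjusted p = 0.0184). Gstt2 had 21.8, 9.58 and 18.9 CPM against 4.90, 7.31 and 4.22, a fall of 1.62 ± 0.41 (adjusted p = 0.0427). In both theta class genes every overloaded library was below every control. Gsta3, an alpha class transferase, had 14.3, 16.2 and 10.2 CPM against 5.66, 6.70 and 5.46 (fell by 1.20 ± 0.28, adjusted p = 0.0298). Oplah had 70.5, 85.6 and 50.8 CPM against 34.8, 38.2 and 34.0 (fell by 0.95 ± 0.25, adjusted p = 0.0472). Gclm did not overlap either, with 15, 12.5 and 10.4 against 27.7, 23.4 and 15.3 CPM, and was not called (0.80 ± 0.23, adjusted p = 0.0638).

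These 6 calls share 3 libraries a side, and between 1 and 5 members passed when a library was left out. The count was 1 (2.27%) without Sham + Sema 4W replicate 1, beside 0.569% of all genes. It was 3 (6.82%) when replicate 1 of the overloaded group was dropped, beside 1.91% of all genes. Srxn1 was called in each of the 6 fits. Fitting only these 2 groups left 0 calls among the members (10 at an unadjusted p under 0.05) and 6 among all genes, and limma-voom left 2. All 8 macrophage markers had negative log2 fold changes in this comparison. They summed to 108 to 359 CPM in Sham + Sema 4W and 62.3 to 115 CPM in TAC 8W + Sema 4W. Of 8 fibroblast markers, 2 were called lower and 3 had a positive log2 fold change, the highest at 1.64. The part of these markers was not tested.

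TAC 8W + Sema 8W vs Sham + Sema 8W, a comparison added after the values were seen, lies in the first set and shares no library with either of the others. None of the 44 genes passed in edgeR, beside 1.09% of all genes (5 members had an unadjusted p under 0.05). DESeq2 called 2 (4.55%), beside 5.28% of all genes, and limma-voom called 0. The smallest p belonged to Gpx3, with 507, 316 and 383 CPM against 131, 164 and 177 and no overlap (1.35 ± 0.38, adjusted p = 0.0801). Gstm7 (-0.86 ± 0.26, adjusted p = 0.101) and Gstk1 (-1.07 ± 0.33, adjusted p = 0.106) followed. Srxn1 had 7.52, 6.26 and 6.97 CPM against 5.13, 3.82 and 3.05 (log2 fold change 0.78). Oplah overlapped here, at 40.7 to 73.7 CPM against 50.7 to 59.3, and Gstt2 did not have a negative log2 fold change.

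Across the 3 comparisons, 17 of 44 genes had a negative log2 fold change each time and 11 a positive one each time. The share of all genes with the same sign in all 3 was not counted, so these numbers have no background. The 17 include Oplah, Gstk1, Gstm1, Gstm2, Gstm5, Gstm7, Gstp1, Gstt1, Mgst3 and the peroxiredoxins Prdx1, Prdx2, Prdx4 and Prdx5. The 11 are Gclc, Gsr, Gsto1, Gpx1, Gpx3, Cat, Txnrd1, Prdx6, Srxn1, Nqo1 and Hmox1. Signs were shared by 37 of 44 genes (84.1%) between TAC 8W vs Sham and the 4W pair, beside 70.0% of all genes. Between TAC 8W vs Sham and the 8W pair it was 33 (75.0%), beside 59.3%. Between the 4W pair and the 8W pair it was 30 (68.2%), beside 51.5%. These shares are descriptions, since the genes of a library share its depth and length trend.

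**Figure D2:**
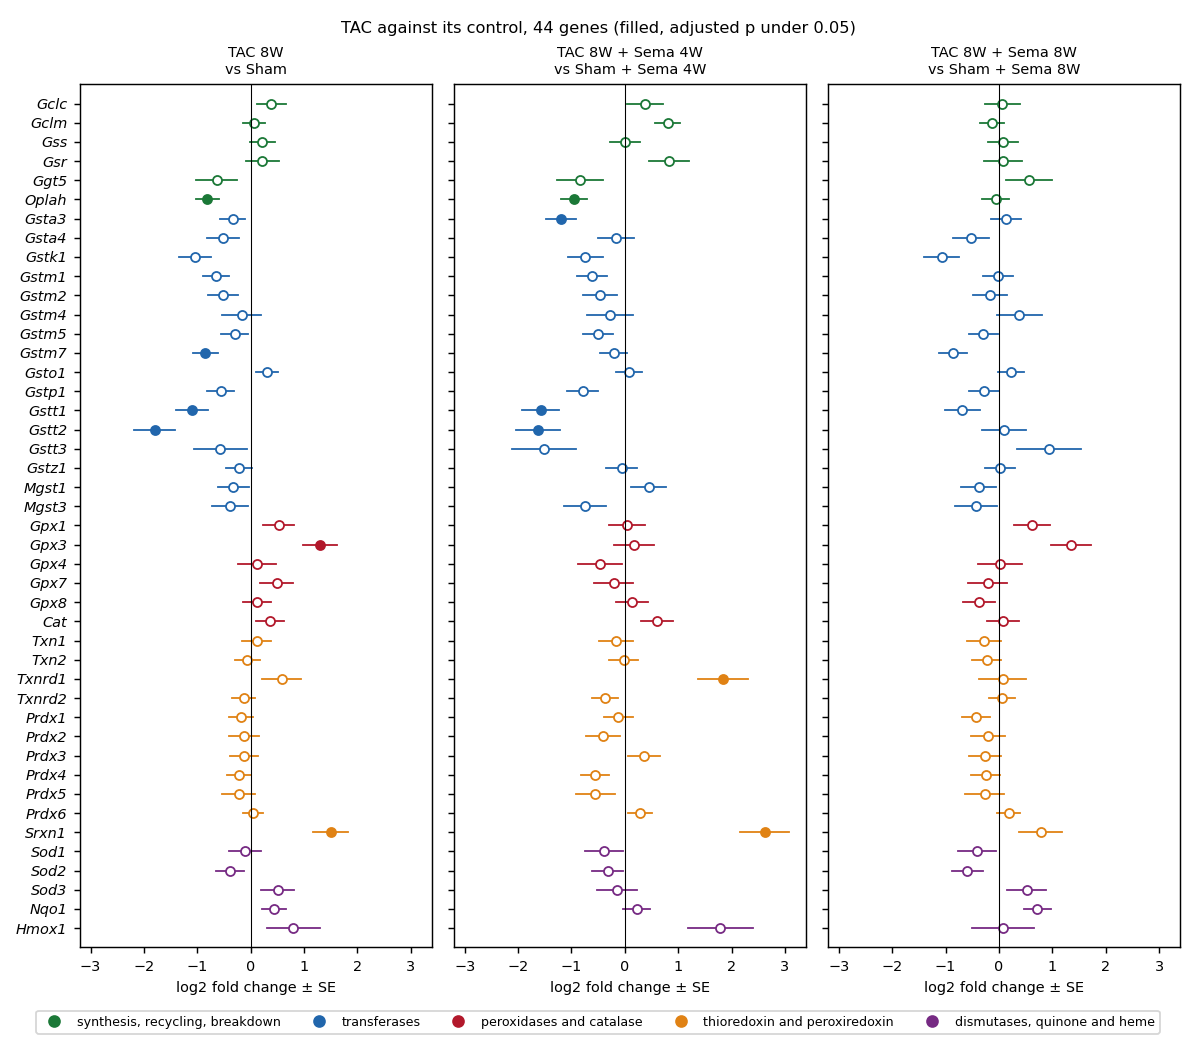
Log2 fold change ± SE of 44 genes for TAC against its control in 3 comparisons that share no library; filled points passed an adjusted p of 0.05 and colours give the class. Srxn1 lies at 1.5, 2.62 and 0.78 and Gstt1 at -1.10, -1.58 and -0.69 from left to right, while Gpx3 lies at 1.30, 0.17 and 1.35.

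Gpx3 overlapped between the 4W groups. It had 232, 226 and 103 CPM in TAC 8W + Sema 4W and 158, 225 and 114 CPM in Sham + Sema 4W, a log2 fold change of 0.17. The interaction of TAC and Sema 4W, which sets the overload difference under Sema 4W against that between TAC 8W and Sham replicates 1 to 3, was -1.31 ± 0.53 for Gpx3 (adjusted p = 0.405). In the same test Srxn1 was at 1.59 ± 0.47 (adjusted p = 0.279) and Txnrd1 at 1.70 ± 0.54 (adjusted p = 0.315). None of the 44 genes passed this interaction in edgeR (5 at an unadjusted p under 0.05, 0 by DESeq2 and limma-voom; background 0.0475%). TAC 8W + Sema 4W and TAC 8W + Sema 8W, which lie in different sets, were not compared with each other.

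TAC 8W + Sema 8W vs TAC 8W asks what 8 weeks of Sema did under pressure overload. None of the 44 genes passed in edgeR, beside 4.09% of all genes (3 members at an unadjusted p under 0.05). DESeq2 called 1 (2.27%), beside 6.85% of all genes, and limma-voom called 0. Oplah had 47.7, 40.7 and 73.7 CPM with Sema against 28.3, 33.7 and 37.2 without, with no overlap (0.71 ± 0.25, adjusted p = 0.115), and it is the gene DESeq2 called. Gstt2 had 6.20, 5.40 and 7.79 CPM against 2.89, 2.92 and 3.21 (1.10 ± 0.41, adjusted p = 0.143), also without overlap. Gstm1 had 206, 222 and 274 CPM against 101, 175 and 149 (0.72 ± 0.28, adjusted p = 0.159).

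All 16 transferases tested had a positive log2 fold change there, between 0.23 and 1.10 with a median of 0.48, and 35 of the 44 genes were positive (median 0.37). Over all genes the median was -0.12, with 468 of 517 called genes lower. The 3 TAC 8W + Sema 8W libraries had rank correlations of expression with GC content of 0.203 to 0.564, against -0.172 to -0.0784 in TAC 8W. Their rank correlations with gene length were -0.231 to 0.139, against 0.0351 to 0.400. With the GC and length trends removed, the median over the members was 0.26, 33 were positive, none passed, and the calls over all genes went from 517 to 51. With a library left out these calls numbered 3 (without TAC 8W + Sema 8W replicate 3), 5 (without TAC 8W replicate 1) and up to 630 (without TAC 8W replicate 2), and no member passed in any of the 6 fits. Gclc (-0.30 ± 0.33, adjusted p = 0.679), Gclm (0.00 ± 0.23, adjusted p = 0.996), Nqo1 (0.47 ± 0.26, adjusted p = 0.361) and Hmox1 (-0.13 ± 0.57, adjusted p = 0.934) were not called. Their 95% intervals, by a normal approximation, were -0.94 to 0.35, -0.45 to 0.45, -0.05 to 0.98 and -1.25 to 1.00, so changes within these ranges are not excluded.

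Srxn1 and Gpx3 overlapped with and without Sema 8W under TAC, and neither was called. Srxn1 was at 7.52, 6.26 and 6.97 CPM against 8.46, 7.35 and 5.66 (log2 fold change -0.05 ± 0.39, 95% interval -0.81 to 0.71). Gpx3 was at 507, 316 and 383 CPM against 579, 335 and 219 (0.09 ± 0.38, -0.65 to 0.83), so changes within these intervals are not excluded in either gene. The interaction of TAC and Sema 8W, taken within the first set, called none of the 44 genes in edgeR (1 at an unadjusted p under 0.05, 0 by DESeq2 and limma-voom; background 0.475%). Gstt2 had the smallest p (1.6 ± 0.56, adjusted p = 0.224), before Oplah (0.64 ± 0.35, adjusted p = 0.551) and Gpx8, a peroxidase of the endoplasmic reticulum (-0.72 ± 0.41, adjusted p = 0.588).

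TAC 8W + Sema 4W vs TAC 8W asks about Sema in the last 4 weeks, and here set and treatment cannot be told apart. None of the 44 genes passed in edgeR, beside 2.80% of all genes (8 members at an unadjusted p under 0.05). DESeq2 called 2 (4.55%), beside 8% of all genes, and limma-voom called 0. Mgst1, a microsomal transferase, had 106, 100.2 and 40.9 CPM with Sema 4W against 27.0, 51.4 and 43.2 (1.02 ± 0.33, adjusted p = 0.0890). Gclm had 27.7, 23.4 and 15.3 CPM against 13.7, 13.9 and 14.8 and did not overlap (0.64 ± 0.23, adjusted p = 0.121). DESeq2 called this pair of genes. Without TAC 8W + Sema 4W replicate 3, in which both were lowest of their group, edgeR called 5 members, all higher, with this pair among them (Mgst1 1.36, adjusted p = 0.0122; Gclm 0.88, adjusted p = 0.0181). These are 11.4% of the 44 genes, below the 18.7% of all genes called in that fit (2403 genes), while none of all genes passed without TAC 8W replicate 1.

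Gpx3 was lower with Sema 4W by value, with 232, 226 and 103 CPM against 579, 335 and 219 (-1.01 ± 0.38, adjusted p = 0.138), and TAC 8W replicate 3 lay below 2 of the 3 libraries with Sema. All 8 fibroblast markers (median log2 fold change -1.95, 3 called; summed 616 to 907 CPM against 1278 to 3236) and all 8 macrophage markers (median -1.59, 1 called; 62.3 to 115 CPM against 104 to 410) were lower in the same comparison, and their part in the Gpx3 value was not tested. With GC and length trends removed Gpx3 fell by 1.31 (adjusted p = 0.0394). It was then the 1 member called (2.27%), beside 4.55% of all genes. Gclc (-0.61 ± 0.33, adjusted p = 0.292), Nqo1 (-0.51 ± 0.26, adjusted p = 0.267) and Hmox1 (0.36 ± 0.58, adjusted p = 0.735) did not pass. A term for the set of libraries left 0 members and 2 of all genes called.

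Sham + Sema 8W vs Sham asks about Sema in the unloaded heart. None of the 44 genes passed in edgeR, beside 0.00792% of all genes, which is 1 gene (6 members at an unadjusted p under 0.05, 0 by DESeq2 and limma-voom). Positive values were found in 36 of 44 genes, with a median of 0.31 against 0.01 over all genes. Sham + Sema 8W replicate 3, with the highest sum of the members, held the highest Prdx2 (926 CPM, against 465 and 405 in replicates 1 and 2) and Sod2 (1143 CPM, against 620 and 534) of the group. The smallest p-values were those of Gstt3 (-1.28 ± 0.55), mitochondrial Txn2 (0.53 ± 0.23) and Mgst1 (0.64 ± 0.28), each with an adjusted p of 0.564.

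In Sham + Sema 4W vs Sham, Txnrd1 and Srxn1 fell, 2 of 44 genes (4.55%), where 7.27% of all genes were called. Txnrd1 had 4.75, 7.27 and 3.71 CPM with Sema 4W. In Sham it had 21.6, 25.1 and 27.5 CPM in replicates 1 to 3 and 5.58, 15.7 and 13.8 in replicates 4 to 6, so only replicate 4 overlapped with the treated group. It fell by 1.78 ± 0.43 (adjusted p = 0.0468). Srxn1, with 0.895, 1.05 and 0.556 CPM, lay below all 6 shams and fell by 1.55 ± 0.42 (adjusted p = 0.0468).

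Within the second set the drops were smaller and not called: 1.14 for Txnrd1 and 0.83 for Srxn1 against Sham replicates 4 to 6, each with an adjusted p of 0.345. Against replicates 1 to 3 they were 2.22 (adjusted p = 0.00160) and 2.02 (adjusted p = 0.00139). Gsr, the glutathione reductase, came closest of the others with 7.97, 9.48 and 2.22 CPM against 14.8, 16.4 and 20 in Sham replicates 1 to 3 and 7.29, 13.2 and 13.0 in replicates 4 to 6 (-1.08 ± 0.33, adjusted p = 0.0506). No gene of the whole table passed edgeR with replicates 4 to 6 as the reference (4 members at an unadjusted p under 0.05), nor when any 1 of 7 of the 9 libraries was left out. The exceptions were Sham replicate 4 and Sham + Sema 4W replicate 2, without which 10 and 6 members passed (22.7% and 13.6%), beside 25.9% and 14.2% of all genes in those fits.

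The 2 sets of shams were compared with each other, and Srxn1 was the 1 of 44 genes called (background 3.29%). It was lower in replicates 4 to 6 by 1.19 ± 0.32 on the log2 scale (adjusted p = 0.0469). Txnrd1 (-1.08 ± 0.38, adjusted p = 0.129) and Prdx6, the 1-cysteine peroxiredoxin (-0.45 ± 0.20, adjusted p = 0.233), did not overlap between the sets either and were not called. The Srxn1 call was lost when any 1 of the 6 shams was left out. Among all libraries without TAC, Srxn1 ranged from 0.556 to 5.13 CPM and Txnrd1 from 3.71 to 28.5 CPM.

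**Figure D3:**
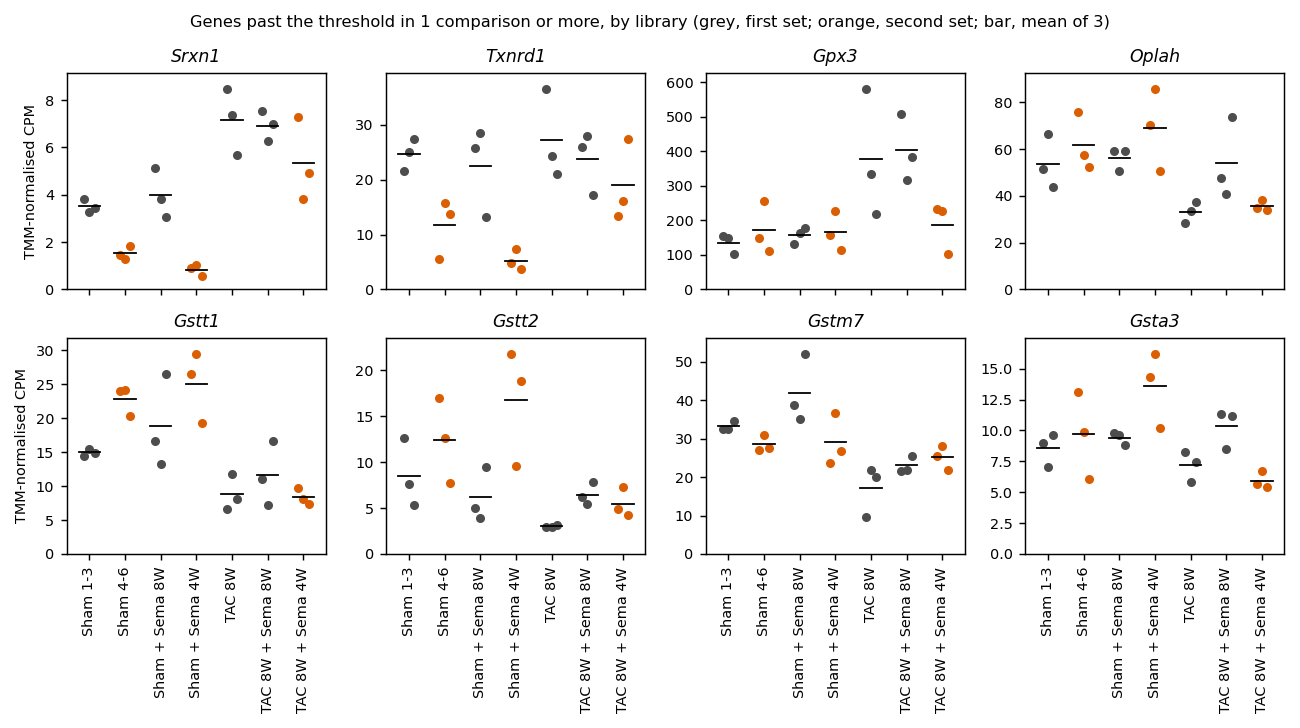
TMM-normalised CPM of the 8 genes past the threshold in at least 1 comparison, 1 point per library, with shams 1 to 3 and 4 to 6 apart (grey, first set; orange, second set; bars, means of 3). Srxn1 runs from 0.556 to 1.05 CPM in Sham + Sema 4W and from 5.66 to 8.46 CPM in TAC 8W, and Gstt2 sits between 2.89 and 3.21 CPM in TAC 8W, below every library without TAC.

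**Figure D4:**
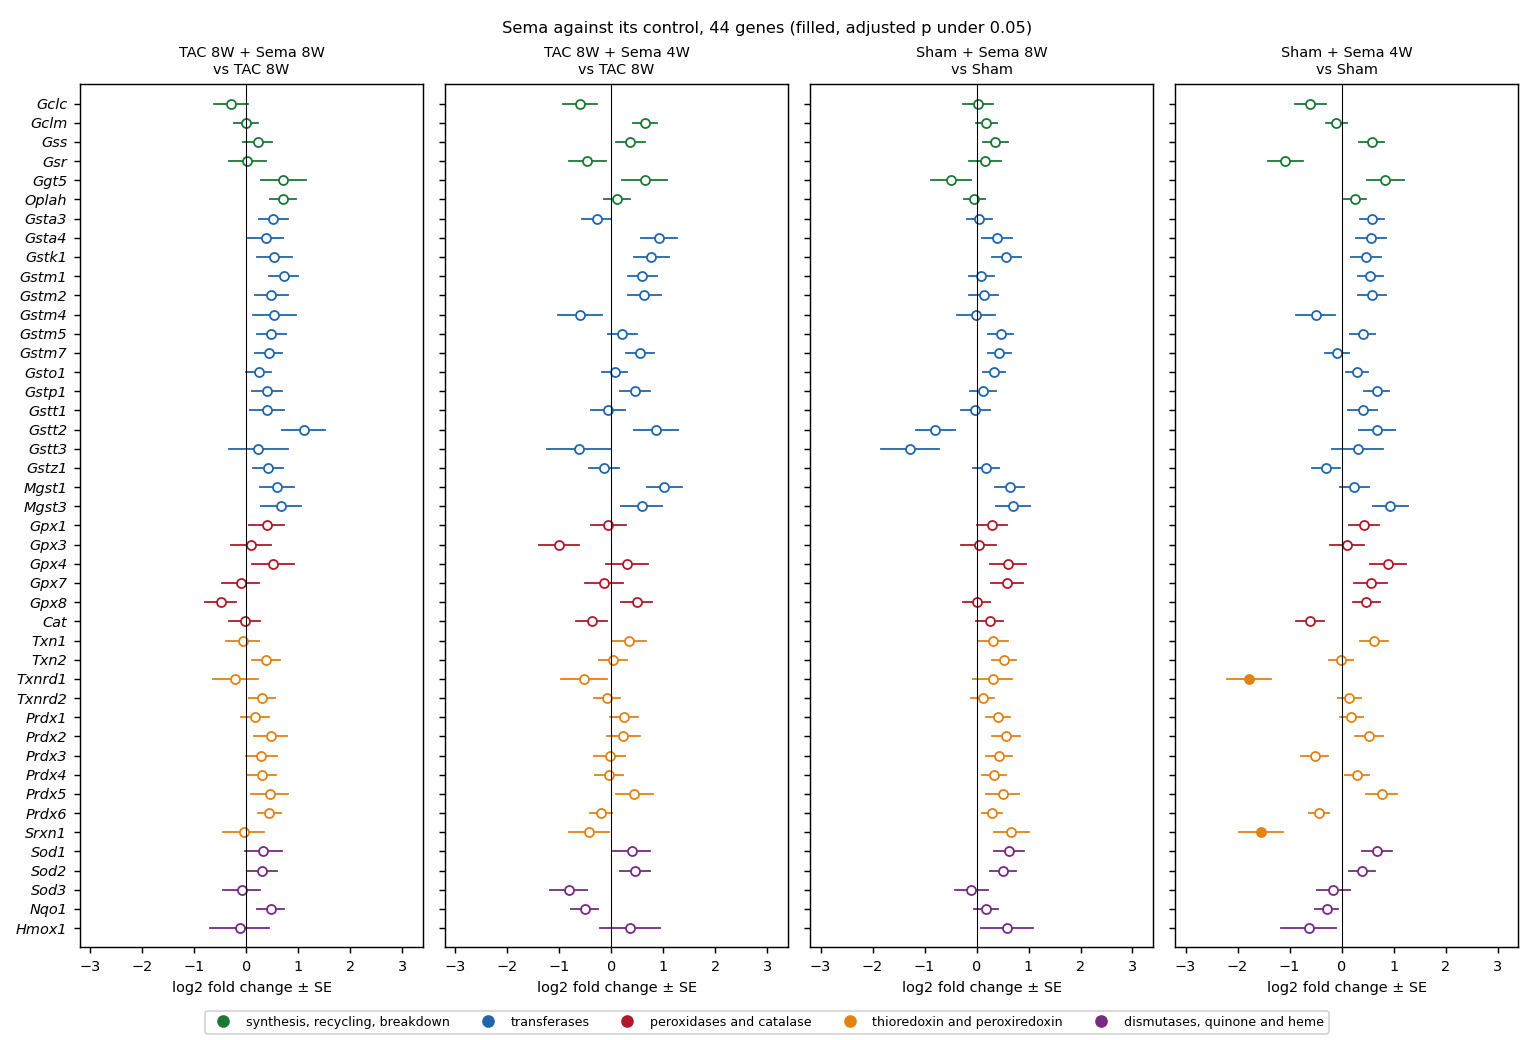
Log2 fold change ± SE of 44 genes for Sema against its control in 4 comparisons; filled points passed an adjusted p of 0.05 and colours give the class. The 2 filled points are Txnrd1 at -1.78 and Srxn1 at -1.55 in Sham + Sema 4W vs Sham, and in the left panel all 16 transferases lie between 0.23 and 1.10.

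Genes around the pathway were read from 6 further lists. Of 8 genes of NRF2 and its regulators, 2 rose in TAC 8W vs Sham and none fell, where 4.34% of all genes were called. They encode small MAF proteins, the DNA-binding partners of NRF2 and of its competitor BACH1. Maff had 15.2, 5.76 and 7.12 CPM in TAC 8W against 0.754 to 2.07 in Sham (2.79 ± 0.42, adjusted p = 0.000365). Mafk had 41.2, 18.7 and 18.4 CPM against 4.95 to 9 (1.93 ± 0.35, adjusted p = 0.00245). With Sema 4W under TAC, Mafk was lower (4.68, 4.74 and 14.6 CPM; log2 fold change -1.69 ± 0.44, adjusted p = 0.0413), beside 2.80% of all genes called. These groups lie in different sets, so set and treatment cannot be told apart here either. The call was lost in 7 of 15 alternatives. Among them were a set term (-1.50, adjusted p = 0.627) and only the groups compared (-1.64, adjusted p = 0.184).

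Nfe2l2 itself was called only between the sham sets (44.1 to 46.3 CPM in replicates 1 to 3 and 79.0 to 82.9 CPM in 4 to 6; 0.84 ± 0.22, adjusted p = 0.0428), in the direction opposite to Srxn1. Bach1, a repressor at the same element, fell in Sham + Sema 4W vs Sham (2, 1 and 0 counts against 6 to 57; -4.26 ± 1.20, adjusted p = 0.0476) and rose in TAC 8W + Sema 4W vs Sham + Sema 4W (8, 5 and 160 counts; 5.05 ± 1.26, adjusted p = 0.0393). These counts are few, and TAC 8W + Sema 4W replicate 3 held most of them.

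Of 12 tested genes of cystine uptake and glutathione turnover, 1 fell in TAC 8W vs Sham, beside 4.34% of all genes called. This was Cth, which makes cysteine from cystathionine, with 0.115, 0.886 and 0.536 CPM against 1.4 to 3.33 (-2.23 ± 0.55, adjusted p = 0.0199). With Sema 8W under TAC, 2 of the 12 rose, beside 4.09% of all genes called. Chac1, which degrades glutathione, had 12.4, 17.4 and 20.1 CPM against 8.31, 3.63 and 5.74 (1.48 ± 0.41, adjusted p = 0.0455). Dpep1, a dipeptidase of glutathione breakdown, had 50.6, 50.5 and 67.9 CPM against 23.9, 17.1 and 31.0 (1.23 ± 0.33, adjusted p = 0.0413). Chac1 also rose in TAC 8W + Sema 8W vs Sham + Sema 8W, where the group without TAC had 4.41, 4.03 and 2.03 CPM (2.22 ± 0.43, adjusted p = 0.0244). Under Sema 8W with TAC, neither gene stayed called in any of the 6 fits with a library left out (adjusted p = 0.0749 to 0.252 for Chac1 and 0.0590 to 0.244 for Dpep1, log2 fold changes of 1.04 to 1.86) or with GC and length trends removed. The second Chac1 call was lost in 5 of 6 such fits.

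Among 10 tested oxidant producing enzymes, 1 rose in TAC 8W vs Sham, where 4.34% of all genes were called. This was Nox4, an NADPH oxidase that yields hydrogen peroxide. It had 6.58, 1.59 and 0.842 CPM (171, 18 and 11 counts) against 1 to 6 counts in Sham (3.57 ± 0.75, adjusted p = 0.00662). Most of these counts lay in TAC 8W replicate 1. Xdh, xanthine dehydrogenase, rose with Sema 8W under TAC, with 101, 114 and 152 CPM against 50.3, 32.3 and 56.9 (1.39 ± 0.33, adjusted p = 0.0226), and its call was lost in 4 of 6 fits with a library left out (adjusted p = 0.0381 to 0.174). Of 10 tested genes of NADPH supply, 1 fell in Sham + Sema 4W vs Sham, where 7.27% of all genes were called. This was Idh1, the cytosolic isocitrate dehydrogenase, with 12, 21.4 and 11.1 CPM against 19.3 to 45.4 (-1.24 ± 0.30, adjusted p = 0.0468).

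Glutaredoxins, methionine sulfoxide reductases and other thiol proteins (19 tested) were called only in that comparison. There 2 of the 19 fell, beside 7.27% of all genes called. Glrx, cytosolic glutaredoxin, fell by 1.02 ± 0.29 (6.27, 10.4 and 6.67 CPM against 7.65 to 20.7; adjusted p = 0.0476), and Sesn2, a sestrin, by 2.59 ± 0.63 (4, 2 and 0 counts against 9 to 33; adjusted p = 0.0468). In the list of further transferases and peroxidases (8 tested), Gstm3 had 0 counts in Sham replicates 1 to 3 and 54, 46 and 65 counts in replicates 4 to 6 (adjusted p = 0.00434). As the calls of Sham + Sema 4W vs Sham in these lists lie across the 2 sets of shams, the same limit holds for them as for Txnrd1 and Srxn1. With a library left out, the calls of Idh1, Glrx and Sesn2 were lost in 7 of 9 fits each and that of Bach1 in 8 of 9, and its call in the 4W pair in 4 of 6. In TAC 8W vs Sham, Maff was called in all 20 alternatives, Mafk and Nox4 were not called without TAC 8W replicate 1, and Cth was not called without replicate 1 or replicate 3. The Mafk call under Sema 4W was lost in 4 of 6 such fits and the Nfe2l2 call in 6 of 6.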

How the data were processed

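The authors sequenced 21 libraries of left ventricular RNA, and the deposited values are raw counts per gene, whole numbers with 1 column per library. Per the labels and the study's methods the authors trimmed reads with cutadapt 1.11, aligned them to mm10 with hisat2 and counted them with featureCounts 1.6.0. Annotation and strandedness: not given in the sources used here. Column names and titles differ for 4 groups, matched by the reading of the tags given above; 0 columns were left over. Whether libraries of a group come from separate animals is not stated, so p-values measure the spread between these libraries.

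The 45 genes, the further lists and the tests were chosen with earlier results of these data known. IDs were named with GENCODE M21 (22118 of 22136). Counts were scaled by TMM, filtered with filterByExpr (minimum count 10, minimum total 15; 12626 genes kept) and tested by quasi-likelihood in edgeR 4.0.16 (R 4.3.3). All 21 libraries entered 1 model with a mean for each of the 6 groups, or of 7 groups with the shams apart for the interactions and the sham sets. The biological coefficient of variation was 37.2%. P-values are two-sided and adjusted by Benjamini-Hochberg over all genes, with a threshold of 0.05, and the SE is the log2 fold change over the root of F. CPM values are TMM-normalised. Depth was 8897837 to 17170139 counts. TMM factors ran from 0.568 (Sham + Sema 4W replicate 3) to 1.581 (TAC 8W replicate 1), so the counts behind 1 CPM differ between libraries. Low genes carry a large counting error. The fit was tested on simulated data before use.

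Full statistics are given for members past the threshold (up to 10), for the 3 of smallest p where fewer than 3 passed, for Gclc, Gclm, Nqo1 and Hmox1 in TAC 8W vs Sham and the Sema comparisons under TAC, and for up to 3 called genes per further list. The remaining values were chosen after they were seen. Replicate numbers did not pair libraries. Alternatives were RLE factors, no filter, DESeq2 1.42.0, limma-voom (limma 3.58.1), only the groups compared, a replicate block, a set term, either set of shams, no mitochondrially encoded genes, GC and length trends removed (splines, 5 degrees of freedom), and each library left out.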

Additional observations from a re-analysis of the deposited data

Results flagged for a closer look

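Within the 6 shams, 5 of 44 genes had 1 library far from the others by Dixon's test at the 95% level. Chance flags about 1 in 20 groups. Replicate 4 was the high library in 4 of them: Mgst3 at 437.7 CPM (next highest 319, lowest 252), Txnrd2 at 46.8 CPM (next 38.0, lowest 33.5), Prdx5 at 701.1 CPM (next 480.1, lowest 395) and Sod1 at 337.4 CPM (next 259, lowest 217). This library had the most negative correlation of expression with gene length among the shams (-0.215), and its part in these values was not tested. Gpx3 was the fifth gene, with Sham replicate 5 at 255.6 CPM (next 153, lowest 104), the library that overlapped with TAC 8W in the comparison above. No member passed either interaction test.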

How the results depend on the processing

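Each of the 15 calls was lost under some settings. In TAC 8W vs Sham, of 20 settings, Gpx3 was lost in 2, Srxn1 and Gstt2 in 4 each, Gstt1 in 8, Oplah in 10 and Gstm7 in 12. In TAC 8W + Sema 4W vs Sham + Sema 4W, of 15, Srxn1 was lost in 1, Gstt1 in 2, Txnrd1 in 5, Gsta3 in 6, Gstt2 in 7 and Oplah in 11. Txnrd1 was lost in 10 and Srxn1 in 11 of 20 in Sham + Sema 4W vs Sham, and Srxn1 in 8 of 13 between sham sets. The causes of the changes were not tested. In TAC 8W vs Sham the 6 members called became 1 with a replicate block, 1 with the set term and 1 with Sham 1 to 3 alone, and 0 to 6 when a library was left out. That 1 is 2.27% of the members, beside 1.31%, 2.22% and 2.22% of all genes. In Sham + Sema 4W vs Sham the 2 became 7 (DESeq2), 0 (limma-voom), 4 (only the groups compared), 6 (replicate block), 9 (GC and length), 0 (set term), 6 (Sham 1 to 3 alone), 0 (Sham 4 to 6 alone) and 0 to 10 (a library left out). Shares of members and of all genes were 15.9% and 23.3% (DESeq2), 9.09% and 10.8% (only the groups compared) and 13.6% and 24.4% (replicate block). They were 20.5% and 19.6% with GC and length, and 13.6% and 31.9% with Sham 1 to 3 alone. The members thus stood near or below all genes. In TAC 8W + Sema 4W vs Sham + Sema 4W the 6 became 2 (limma-voom), 0 (only the groups compared) and 1 to 5 (a library left out). Those 2 are 4.55% of the members, beside 0.792% of all genes. The 1 between sham sets became 0 without a filter, 0 with limma-voom, 2 with only the groups compared and 0 with any sham left out. With only the groups compared, 4.55% of the members were called, beside 12.8% of all genes. Counts of 0 became 1 (DESeq2) for Sema 8W under TAC; 2 (DESeq2), 1 (GC and length) and 0 to 5 (a library left out) for Sema 4W under TAC; 1 for Sham + Sema 8W (Sham 4 to 6 alone); and 2 (DESeq2) and 1 (only the groups compared) for TAC 8W + Sema 8W vs Sham + Sema 8W. For these counts, 1 member is 2.27% and 2 are 4.55% of those tested. Of all genes, DESeq2 called 6.85% for Sema 8W and 8% for Sema 4W under TAC, and GC and length 4.55% for Sema 4W. The share of all genes was 3.61% for Sham + Sema 8W, and 5.28% (DESeq2) and 1.31% (only the groups compared) for the 8W pair. The replicate block, whose numbers do not pair the libraries (14 of 45 same-number correlations over 0.1), could not be fitted between sham sets.

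Among the members named with full statistics, signs turned for Gclm and Hmox1, neither of them called. Gclm in TAC 8W vs Sham was -0.00 with DESeq2, with only the groups compared and without mitochondrially encoded genes, -0.05 with GC and length, and -0.02 with Sham 4 to 6. For Sema 8W under TAC it was -0.00 with the replicate block and -0.04 to 0.05 with a library left out. Hmox1 ranged over -0.27 to 1.20 in TAC 8W vs Sham, -0.52 to 0.95 for Sema 8W under TAC and -0.04 to 1.46 for Sema 4W under TAC with a library left out, and for Sema 8W it was 0.10 (limma-voom), 0.14 (replicate block) and 0.02 (without mitochondrially encoded genes). Over all genes, TAC 8W vs Sham called 152 (without TAC 8W replicate 1) to 1470 (Sham 4 to 6 alone) in place of 548, Sema 8W under TAC 3 (without TAC 8W + Sema 8W replicate 3) to 864 (DESeq2) in place of 517, Sema 4W under TAC 0 to 2403 in place of 354, and Sham + Sema 4W vs Sham 0 to 4034 in place of 918. Depth limits the low genes: Srxn1 rests on 3 to 220 counts per library.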
